A study of Mus musculus with 160 samples.

Results

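The levels of 9 genes of mast cell and basophil granules were followed through the 160 single cells of the series: the proteases Mcpt1, Mcpt2, Mcpt4, Mcpt8, Cma1 and Cpa3, the pseudogene Mcpt-ps1, the histamine enzyme Hdc and the steroid enzyme Cyp11a1. They were chosen by name, with earlier results of these data known, and are 9 of the 23420 genes in the table. All 9 passed both filters on low values, set at over 1 TPM in more than 30 cells of any day or in more than 10 day-21 cells, so none was lost. TPM is a transcript level scaled by gene length and to a fixed total per cell, so levels of different genes can be set side by side.

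The cells were 65 induced hemogenic endothelial cells (iHECs) and 21, 18 and 56 induced hematopoietic progenitor cells (iHPCs) of day 14, day 17 and day 21 of induction, all of strain C57BL/6. They came from pluripotent stem cells (embryonic or induced by the labels, and embryonic for the iHPCs by the study's text) that carry Runx1 and Hoxa9 under doxycycline control, and every group shared transgene and doxycycline. The iHPCs grew on a stromal layer, the Notch ligand-bearing line OP9-DL1, for 3, 6 and 10 days in medium that held IL-3, Flt3 ligand and SCF-conditioned medium. The labels name no animal or culture, so each group counted as 1 sample, no test was run, and every SD is the spread between cells.

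A different sort gate was used at each stage. Endothelial cells were gated as CD31+CD41lowCD45-c-kit+CD201high. At days 14 and 17 the gate took CD45+ cells negative for a lineage cocktail that included FcεRIα, the IgE receptor chain that mast cells and basophils display. At day 21 the gate, with no FcεRIα exclusion, was Ter119-CD45+c-kit+CD127+. The day and the gate therefore cannot be told apart as sources of any difference between day 17 and day 21. The median number of genes above 1 TPM per cell was between 4926 and 8200 in the 4 groups, and the read depth of each cell is unknown.

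Mast cells store proteases bound to the heparin proteoglycan of their granules. In mice, mast cells of connective tissue are known for the chymases Mcpt4 and Cma1, and those of mucosa for Mcpt1 and Mcpt2, whereas Mcpt8 is known from basophils. Cpa3 is a carboxypeptidase of mast cell granules, also transcribed in basophils and in some early progenitors. Hdc makes histamine from histidine, and Cyp11a1 cuts the side chain of cholesterol to give pregnenolone, the first step of steroid synthesis. GATA2 is a transcription factor that mast cells need for their development.

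Of the 9 genes, 6 lie in 1 cluster on chromosome 14 (GRCm38, GENCODE), from the start of Cma1 at 55941451 to the end of Mcpt8 at 56085273, a span of 143.8 kb. Cma1 (55941451 to 55944675), Mcpt-ps1 (55949809 to 55952350), Mcpt4 (56059629 to 56062313) and Mcpt8 (56082166 to 56085273) are on the minus strand. Mcpt1 (56017971 to 56020384) and Mcpt2 (56042041 to 56044642) are on the plus strand. Ctsg, the gene of cathepsin G, lies next to Mcpt8, and Gzmb, the gene of granzyme B, lies 173.6 kb from the end of Mcpt8. Cpa3 is on chromosome 3 (20215620 to 20242181, minus strand), Hdc on chromosome 2 (126593667 to 126619299, minus strand) and Cyp11a1 on chromosome 9 (58006411 to 58027023, plus strand). Mcpt-ps1 overlaps Cma2, a gene on the opposite strand, by 1371 bases, and the strand of the libraries is not stated, so their reads cannot be told apart there. Of the stretches of 50 bases in the transcripts of Mcpt4, 5.48% also occur in those of Cma2, and 5.38% of those of Cma1 occur in Gm48934.

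Promoters of 7 of the 9 genes were matched in RefSeq (GRCm38.p6), those of Mcpt2 and Mcpt-ps1 being the 2 without an entry. Here 3 are shown because they hold the letters TGTGGT, the core that Runx factors bind, in the 100 bases before the start, and Runx1 is 1 of the 2 induced factors. Capitals mark TGTGGT or its reverse complement ACCACA and, in Cpa3, AGATAA, which GATA factors bind. All are written 5′ to 3′ on the strand of the gene.
Mcpt1, chr14:56017864-56017963, plus strand: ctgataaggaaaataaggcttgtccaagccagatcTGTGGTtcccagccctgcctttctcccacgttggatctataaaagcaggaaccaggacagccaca
Mcpt4, chr14:56062311-56062410, minus strand: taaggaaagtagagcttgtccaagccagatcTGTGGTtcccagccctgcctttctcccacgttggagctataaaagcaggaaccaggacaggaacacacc
Cpa3, chr3:20242182-20242281, minus strand: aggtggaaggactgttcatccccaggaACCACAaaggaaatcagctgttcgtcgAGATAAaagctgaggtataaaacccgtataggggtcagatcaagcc

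The Mcpt1 and Mcpt4 stretches share an unbroken run of 53 bases that includes TGTGGT, so these 2 matches are not independent of each other. Positions counted from the RefSeq start were -65 in Mcpt1, -69 in Mcpt4 and -73 in Cpa3. Searched on both strands of 250 bases before to 50 after the start, TGTGGT was found in 6 of the 7 members and in 18.9% of 27025 genes. Mcpt8 had it at -188 and -139, while Cma1 and Cyp11a1 had it after the start, at 32 and 26, the RefSeq start of Cyp11a1 lying upstream of the GENCODE start given above. AGATAA was found in 1 of 7, Cpa3 at -46, against 12.7% of genes, and the E-box CATGTG in 1 of 7, Cyp11a1, against 15.9%. Other letters around GATA were not searched, and the Mcpt1 stretch above holds an unmarked TGATAA. Each match is a description of letters and not a binding site.

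Before day 21 the protease genes were not listed above 0. Mcpt1, Mcpt2, Mcpt4, Mcpt8, Mcpt-ps1, Cma1 and Cyp11a1 stood at 0 TPM in all 65 endothelial cells and in all progenitors of day 14 (21 cells) and day 17 (18 cells). The limit that a count of 0 allows, 3 cells of the total, is 4.62%, 14.3% and 16.7% of these groups. This limit and the intervals below cover counting error only. Cpa3 and Hdc were the 2 exceptions.

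Cpa3 was at 0 in all 65 iHECs and was listed in 2 day-14 cells, at 0.71 and 0.45 TPM. At day 17 it was above 1 TPM in 11 of 18 cells (61.1%, exact Clopper-Pearson 95% interval 35.7 to 82.7), with a lowest value of 0, a median of 11 and a highest of 139 TPM. At day 21 it was above 1 TPM in 56 of 56 cells (interval 93.6 to 100), from 19.4 to 15786 TPM with a median of 1417 TPM. The carboxypeptidase gene was thus the only member that was listed in most cells of day 17.

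Hdc appeared in a minority of cells of each early group. The cells above 1 TPM were 4 of the 65 iHECs, 8 of the 21 cells of day 14 and 4 of the 18 of day 17, with highest values of 46.9, 23.2 and 26 TPM and a median of 0 in each group. Of the 4 iHECs, 2 had over 40 TPM (46.9 and 41.7) and the others had 1.45 and 1.03 TPM. At day 21 it was above 1 TPM in 47 of 56 cells (83.9%, interval 71.7 to 92.4) and reached 15158 TPM.

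From day 17 to day 21 all 9 members were higher by at least 2 log2 units of mean log2(TPM + 1), against 0.755% of the 9674 genes compared. Members were chosen with their rise at day 21 known, and those at 0 before it passed the filter only through day-21 cells. The count therefore follows from the choice and is only a description. The differences were 8.01 for Mcpt4, 7.48 for Cpa3, 6.85 for Mcpt1, 6.71 for Cma1, 4.92 for Cyp11a1, 4.82 for Hdc, 4.6 for Mcpt2, 4.21 for Mcpt-ps1 and 3.6 for Mcpt8. The median of the 9674 genes was -0.74, so each value is 0.74 larger relative to it. From day 14 to day 17 only Cpa3 among the members reached 2 log2 units, with a difference of 3.20, against 2.76% of genes. From iHEC to day 14 no member did, against 25.7% of genes, and the values of Cpa3 and Hdc were 0.06 and 0.82.

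**Figure D1:**
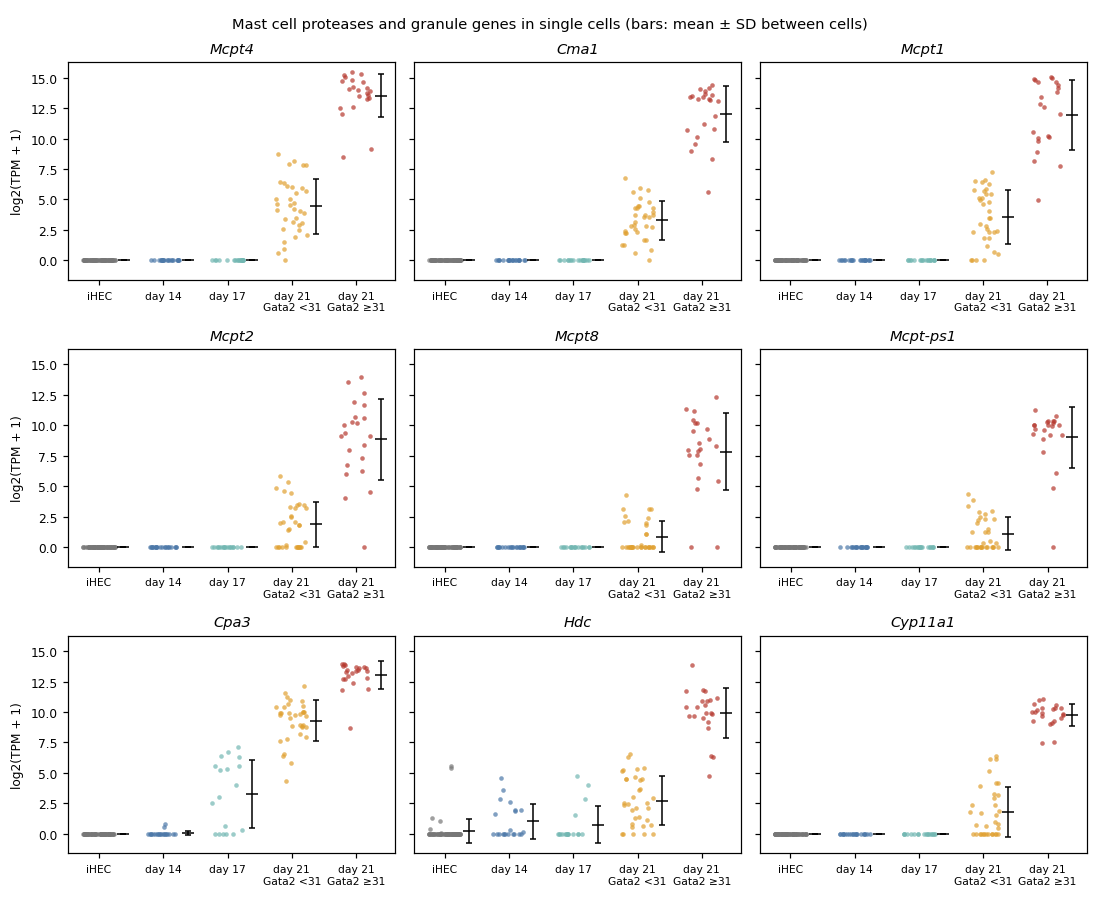
Level of each gene in log2(TPM + 1) (vertical axis) in iHECs, day-14, day-17 and day-21 iHPCs, with day 21 divided by Gata2 at 31 TPM. Each point is a cell, and the bars give the mean and SD between cells. Apart from Cpa3 and Hdc, all genes lie at 0 in every cell before day 21, and Cpa3 climbs through day 17 and both day-21 groups.

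The members were read by Gata2 at day 21, with cells divided at 31 TPM. This threshold was set with these data in view, so the division and all that follows from it are descriptions. Gata2 was at or above 31 TPM in 22 of 56 cells (39.3%, interval 26.5 to 53.2), hereafter Gata2-high. The lowest value inside was 66.0 TPM and the highest outside 9.18 TPM, so no cell lay near the threshold. Gata2-high and Gata2-low cells had similar numbers of genes above 1 TPM, with medians of 6665.5 and 6769.5. Among the iHECs, 12 also had Gata2 at or above 31 TPM, and those cells had 0 TPM of the 7 genes named above.

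Every member was higher in Gata2-high cells by at least 2 log2 units, against 4.15% of the 9277 genes compared. By size of the difference, Mcpt4 (9.10), Cma1 (8.72) and Mcpt1 (8.40) ranked 1, 2 and 3 of the 9277 genes. Cyp11a1 (7.99), Mcpt-ps1 (7.90), Hdc (7.21), Mcpt8 (6.99) and Mcpt2 (6.98) were among the first 13, and Cpa3 (3.74) ranked 96. The median difference of all genes was 0.00.

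Among the connective-tissue type chymases, Mcpt4 ran from 350 to 45517 TPM in Gata2-high cells, with a median of 15876 TPM, and from 0 to 427 TPM in Gata2-low cells, with a median of 20 TPM. The ranges met in 1 Gata2-high cell, at 350 TPM, and 1 Gata2-low cell, at 427 TPM. Cma1 ran from 47 to 21652 TPM with a median of 9346 TPM, against 0 to 107 TPM with a median of 9.25 TPM. Tpsb2 and Tpsab1, the tryptases that connective-tissue mast cells also store, were listed at 0 in all 160 cells.

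Of the mucosal type, Mcpt1 ran from 30.6 to 34857 TPM in Gata2-high cells (median 6723 TPM) and from 0 to 151 TPM in Gata2-low cells (median 10.1 TPM). Mcpt2 ran from 0 to 16039 TPM (median 612 TPM), against 0 to 55.6 TPM (median 2.51 TPM). The spread between Gata2-high cells was wider for these 2 genes, with SDs of 2.88 and 3.36 log2 units, than for Mcpt4 (1.79) and Cma1 (2.31). A wide spread was not limited to the mucosal type, as Mcpt8 had an SD of 3.19 and Mcpt-ps1 of 2.50.

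Mcpt8, of the basophil type, was above 1 TPM in 20 of 22 Gata2-high and 12 of 34 Gata2-low cells. It ran from 0 to 5134 TPM in the first (median 293 TPM) and from 0 to 18.7 TPM in the second (median 0). Prss34, another protease known from basophils, was listed at 0 in all 160 cells. Mcpt-ps1, the pseudogene, had a median of 1015 TPM (0 to 2511) in Gata2-high cells and 0.27 TPM (0 to 19.9) in Gata2-low cells.

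Cyp11a1 had the narrowest spread of the 9 within Gata2-high cells and was the only member whose groups did not overlap. It ran from 177 to 2154 TPM in Gata2-high cells (median 974 TPM, SD 0.93 log2 units) and from 0 to 81.2 TPM in Gata2-low cells (median 0.82 TPM). Of the 9277 genes, 0.0323% had every Gata2-high cell above every Gata2-low cell, Gata2 itself being 1 of these 3 by construction. Hdc ran from 25.6 to 15158 TPM (median 1165 TPM), against 0 to 92.7 TPM (median 4.70 TPM). Its highest value, in cell 17, was over 4 times that of any other Gata2-high cell, the next being 3668 TPM in cell 56.

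Cpa3 had the smallest difference between Gata2-high and Gata2-low cells of the 9 members. It ran from 401 to 15786 TPM in Gata2-high cells (median 10662 TPM) and from 19.4 to 4630 TPM in Gata2-low cells (median 868 TPM), and 30 of the 34 Gata2-low cells were at or above 100 TPM. In Gata2-low cells its mean was 6.01 log2 units above that of day 17, and 30 of the 34 exceeded the highest day-17 cell. The same difference was between 0.85 and 4.44 log2 units for the other members, which apart from Hdc were at 0 at day 17.

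In order of the median in Gata2-high cells, the 9 genes stood as Mcpt4, Cpa3, Cma1, Mcpt1, Hdc, Mcpt-ps1, Cyp11a1, Mcpt2 and Mcpt8. No neighbors in this order differed beyond the spread between cells: each mean difference within a cell was smaller than its SD. The closest to exceeding it were Mcpt1 over Hdc, with a mean difference of 2.02 ± 3.10 log2 units (SD, 22 cells), and Cpa3 over Cma1, with 1.01 ± 2.02. Mcpt4, with a mean difference of 0.53 ± 1.19, was above Cpa3 in 19 of 22 cells, whereas Cma1 was above Mcpt1 in only 8 and Mcpt-ps1 above Cyp11a1 in only 7 of 22.

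The low means of Gata2-low cells were set beside those of Gata2-high cells. For the 6 genes of the chromosome 14 cluster, the mean TPM of Gata2-low cells was between 0.20% and 0.34% of the mean of Gata2-high cells. Ctsg stood at 0.24%, Hdc at 0.73%, Gzmb at 0.84% and Cyp11a1 at 0.995%, while Cpa3 stood at 10.2% and Kit at 28.6%. Gata2 stood at 0.21%, a value that follows from the division because Gata2 set the groups. Across the 34 cells, r with Gata2 on the log2 scale was between 0.34 for Mcpt8 and 0.77 for Mcpt4 in the chromosome 14 cluster, 0.36 for Hdc, 0.34 for Cyp11a1 and 0.05 for Cpa3. In the other direction, 9 genes that were lower in Gata2-high cells were picked by hand. Their means in Gata2-high cells relative to Gata2-low cells ran from 0.17% for Ptcra and 1.3% for Lck to 16.3% for Il7r and 25% for Gata3. These genes and the chromosome 14 cluster are unlike sets, so their ranges are not compared. Whether RNA or reads from other cells of the same day contributed to these low values was not tested, and they are not read as expression.

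**Figure D2:**
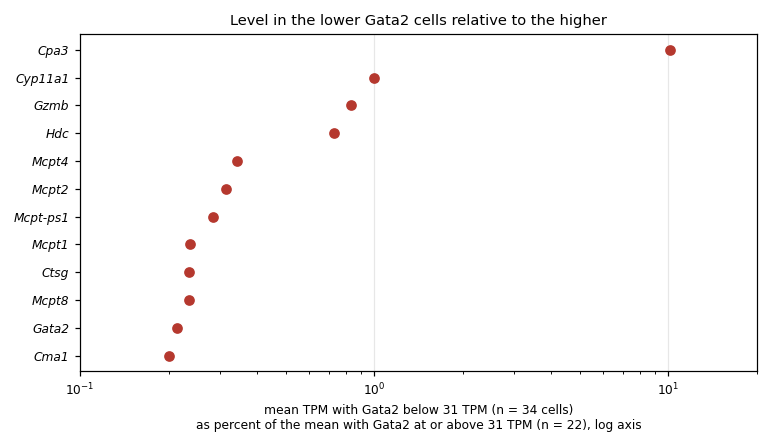
Mean TPM in the 34 Gata2-low cells as a percentage of the mean in the 22 Gata2-high cells, on a log axis, with 1 point per gene. The 6 members of the chromosome 14 cluster, Ctsg and Gata2 lie between 0.20% and 0.34%, and Cpa3 lies apart at 10.2%. The place of Gata2 follows from the division, which it set.

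Within single cells the members were listed together. All 9 were above 1 TPM in 19 of 22 Gata2-high cells, and all 9 were at or above 100 TPM in 12. The remaining Gata2-high cells had 5 to 8 members at or above 100 TPM. In Gata2-low cells a median of 6 members was above 1 TPM, and 27 of 34 cells had exactly 1 member at or above 100 TPM. The 9 genes together took 0.23% to 12.2% of all TPM in a Gata2-high cell, with a median of 5.48%, and a median of 0.10% in a Gata2-low cell. The top share was that of cell 9, which had 34651 TPM of Mcpt4, 31568 TPM of Mcpt1, 18331 TPM of Cma1 and 16039 TPM of Mcpt2.

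**Figure D3:**
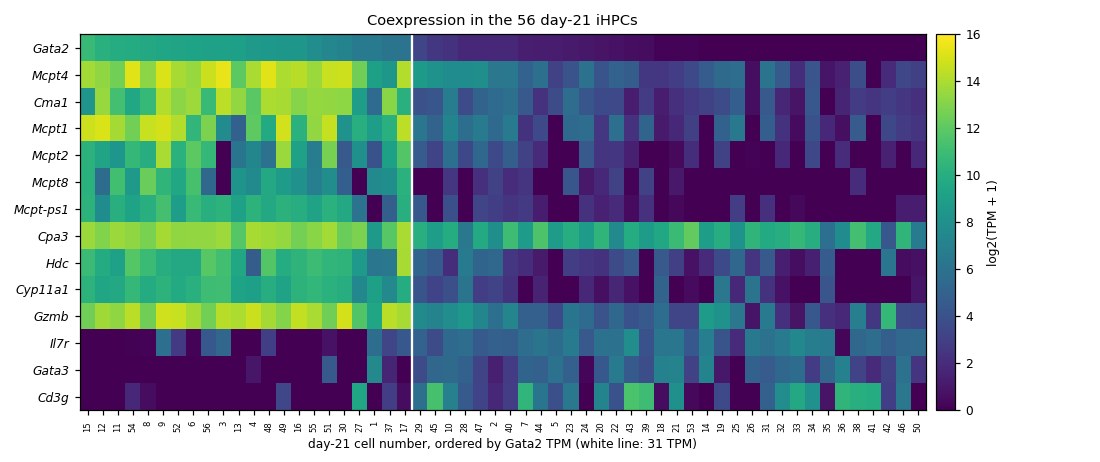
Heat map of log2(TPM + 1) (color) for Gata2, the 9 genes, Gzmb, Il7r, Gata3 and Cd3g (rows) in the 56 day-21 iHPCs (columns, by cell number), ordered by Gata2. Left of the white line, at 31 TPM, the 22 Gata2-high cells hold nearly all members at high levels, and right of it Cpa3 is the member that stays high.

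Most Gata2-high cells held proteases of all 3 types. At over 100 TPM, the connective-tissue type (Mcpt4 or Cma1) was found in 22, the mucosal type (Mcpt1 or Mcpt2) in 21 and the basophil type (Mcpt8) in 17 of 22 Gata2-high cells, with all 3 in 16. No cell had the mucosal or the basophil type alone at that level. At over 1000 TPM the counts were 21, 17 and 6, and 4 cells had the connective-tissue type alone. In Gata2-low cells all 3 types were above 1 TPM in 12 of 34 cells and above 100 TPM in 0 of 34, which allows up to 8.82%.

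The balance of the types varied from cell to cell. The mucosal minus connective-tissue difference, each type as the mean of its 2 genes in log2(TPM + 1), had a median of -1.21 in Gata2-high cells and ran from -11.1 to 1.49, above 0 in 4 of 22. Mcpt1 exceeded Mcpt4 in 8 of 22 cells. At one end stood cell 3, with the highest Mcpt4 (45517 TPM) and Cma1 (21652 TPM), 212 TPM of Mcpt1 and 0 of Mcpt2 and Mcpt8. At the other stood cell 15, with 28453 TPM of Mcpt1, 14045 TPM of Mcpt4 and 322 TPM of Cma1. Cell 12 had the highest Mcpt1 (34857 TPM) beside 10603 TPM of Mcpt4, and cell 8 the highest Mcpt8 (5134 TPM) beside 25496 TPM of Mcpt1.

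Because Gata2-high and Gata2-low cells differed in the mean of every member, correlations were taken within each. Over the 22 Gata2-high cells, Pearson's r between members had a median of 0.37 over 36 pairs, from -0.06 to 0.88. These are descriptions over cells of 1 sample that share a fixed TPM total. The mucosal genes Mcpt1 and Mcpt2 had an r of 0.72, Mcpt4 and Cyp11a1 0.72, and Hdc and Cyp11a1 0.66. The r was 0.26 for Mcpt1 and Mcpt4, -0.05 for Mcpt1 and Cma1, and -0.06 for Mcpt4 and Mcpt8. Mcpt4 and Cma1, both of the connective-tissue type, had an r of 0.39. Over the 34 Gata2-low cells, at the low levels described above, the median was 0.32 (-0.44 to 0.77), with 0.77 for Mcpt1 and Mcpt4, 0.75 for Mcpt1 and Cma1 and 0.71 for Mcpt4 and Cma1.

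Of the Gata2-high cells, 2 had Gata3 or Cd3g at or above 31 TPM. Cell 1 had 183 TPM of Gata3 and cell 27 had 691 TPM of Cd3g, beside 90.7 and 92.9 TPM of Gata2. Other T lymphoid markers were not limited to these cells: Cd7 was at or above 100 TPM in 7 of 22 Gata2-high cells, among them cell 37 with 831 TPM, and Lck was above 1 TPM in 8 of 22. No doublet caller was run, and whether these wells held more than 1 cell was not tested. Cell 1 had the lowest share of TPM in members among Gata2-high cells, with 550 TPM of Mcpt4 and 0 of Mcpt-ps1. Without both cells the median r fell to 0.14 over 20 cells. Mcpt1 and Mcpt2 then had 0.70, Mcpt4 and Cyp11a1 0.82 and Hdc and Cyp11a1 0.69, whereas Mcpt4 and Cma1 had 0.00 and Mcpt1 and Cma1 -0.36.

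**Figure D4:**
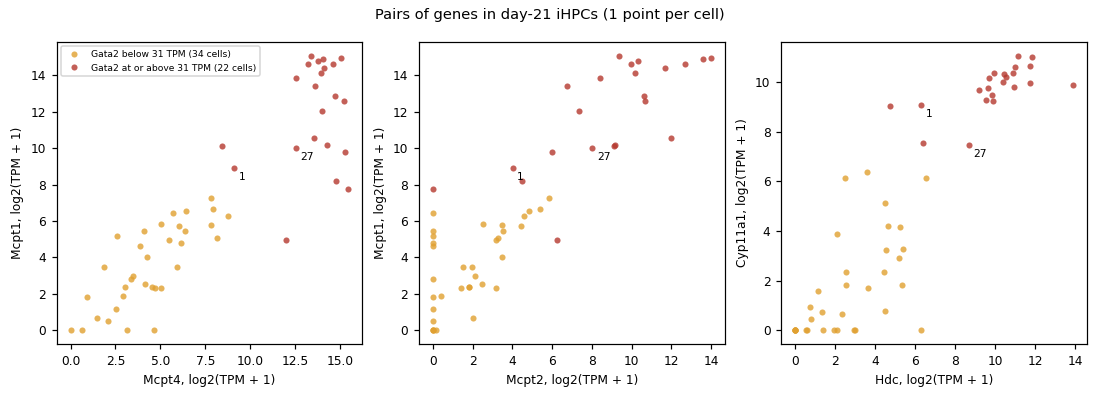
Levels of gene pairs in log2(TPM + 1) in the 56 day-21 iHPCs, 1 point per cell, with Gata2-high cells in red and Gata2-low cells in orange and cells 1 and 27 numbered. Among the red points Mcpt1 varies widely at a similar Mcpt4, while Mcpt1 with Mcpt2 and Cyp11a1 with Hdc vary together.

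Within Gata2-high cells the r between Gata2 and a member differed from member to member. Over these 22 cells r with Gata2 was 0.53 for Mcpt-ps1, 0.51 for Cyp11a1, 0.43 for Mcpt4, 0.40 for Cpa3, 0.31 for Mcpt1 and 0.30 for Mcpt8. It was 0.20 for Hdc, 0.17 for Mcpt2 and 0.16 for Cma1. These r were not recomputed without cells 1 and 27, so how far the order rests on them is unknown. The 2 cells were at the low end of Gata2 in this group (90.7 and 92.9 TPM) and had 0 and 67.9 TPM of Mcpt-ps1. Kit, the receptor of SCF, had 0.74 and Ms4a2, the IgE receptor beta chain, 0.72, but both also went with the number of genes detected (r of 0.55 and 0.56), for which the highest member, Cyp11a1, had 0.37. Cell 17, with the lowest Gata2 of these cells (66.0 TPM), had the highest Hdc and Cpa3, 112 TPM of Fcer1a and 0 of Kit, Gata1 and Ms4a2.

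Over all 56 day-21 cells, a pattern that includes the difference between Gata2-high and Gata2-low cells, the gene most like each member by Pearson's r was often another member or Gata2. Mcpt4 was most like Gata2 (0.94), Mcpt-ps1 (0.94) and Ctla2a (0.92), and Cyp11a1 most like Ctla2a (0.94), Gata2 (0.92) and Hdc (0.91). Cma1 was most like Gzmb (0.93), Mcpt-ps1 and Mcpt4 (0.92 each), and Mcpt1 most like Mcpt4, Ctsg and Mcpt2 (0.90 each). Mcpt2 was most like Mcpt1 (0.90), Ctsg (0.87) and Gata2 (0.83), and Mcpt8 most like Gata2 (0.85), Mcpt1 and Ptgs1 (0.84 each). Mcpt-ps1 was most like Mcpt4 (0.94), Gp49a and Lilrb4 (0.93 each), and Hdc most like Cyp11a1 (0.91), Lilrb4 and Mcpt4 (0.90 each). Cpa3 had the lowest values, 0.80 with Mcpt-ps1, 0.79 with Papss2 and 0.78 with Mcpt4.

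Other genes of the chromosome 14 cluster were read from a list. Gzmb, better known from cytotoxic lymphocytes, was 8.33 log2 units higher in Gata2-high cells, from 702 to 32382 TPM with a median of 15152 TPM, against a median of 35.4 TPM in Gata2-low cells. One Gata2-low cell, cell 42, had 1593 TPM of Gzmb. Ctsg was 8.02 log2 units higher and Cma2 2.99, with Cma2 above 1 TPM in 13 of 22 cells. Gzmc, Gzme, Gzmf, Gzmg and Gzmn were listed at 0 in all 160 cells.

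Beyond the members, 46 genes of the mast cell lists were compared, of which 22 were at least 2 log2 units higher in Gata2-high cells, 0 were lower by that much and 24 lay between, beside 4.15% higher and 2.57% lower of all 9277 genes. Only genes above 1 TPM in more than 10 day-21 cells were compared, and some passed through the Gata2-high cells alone, so these counts are descriptions and leave out the rarer genes of each list. Of 14 mast cell receptor genes, 8 were compared, and 4 of the 8 were higher, beside the same 4.15%. These were Csf2rb (6.07), the shared beta chain of the IL-3 receptor family, Adora3 (4.88), an adenosine receptor, Ms4a2 (4.39) and Csf2rb2 (3.59), an IL-3 receptor beta chain. Kit (1.73) and Fcer1g (1.98), the gamma chain of Fc receptors, fell short of 2. Among those not compared, Fcer1a was above 1 TPM in 2 of 22 Gata2-high and 0 of 34 Gata2-low cells, Il1rl1, the IL-33 receptor, in 10 and 0, and Mrgprb2, a receptor of connective-tissue mast cells, was listed at 0 in all 160 cells.

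Of the 15 granule and proteoglycan genes 14 were compared and 8 were higher, again beside 4.15% of all genes. Ndst2, which sulfates heparin, was 4.91 higher, with medians of 116 and 0.56 TPM. Furin, a processing protease, was 3.94, Hexa, a lysosomal hexosaminidase subunit, 3.31 and Slc18a2, the vesicular monoamine transporter, 3.26 higher. Srgn, the serglycin core to which the proteases bind, was 2.47 higher and had medians of 6255 and 959 TPM.

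Of 11 eicosanoid and amine genes 5 were compared and 4 were higher, against the same 4.15%. They were Ptgs1 (6.20), a cyclooxygenase, Tph1 (5.60), which starts serotonin synthesis, Hpgds (3.58), a prostaglandin D synthase, and Alox5ap (3.35), which serves leukotriene synthesis. Other steps were rare: Alox5, the enzyme that Alox5ap serves, was above 1 TPM in 0 of 22 Gata2-high cells, Ltc4s, which makes leukotriene C, in 3 of 22, and Ddc, which acts after Tph1, in 2 of 22. Of 10 steroid genes 4 were compared and 2 were higher, against the same 4.15%. They were the member Cyp11a1 and Fdx1 (3.34), the ferredoxin that passes electrons to Cyp11a1. Fdxr, the reductase before Fdx1, had -1.14. The later enzymes Hsd3b1, Cyp17a1, Cyp11b1 and Cyp21a1 were listed at 0 in all 160 cells, and Star, the cholesterol carrier, was above 1 TPM in 0 of 22 Gata2-high and 1 of 34 Gata2-low cells.

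Of the 13 transcription factors compared besides Gata2, which set the groups, 2 were higher, beside 4.15% of all 9277 genes. They were Gata1 (5.34, above 1 TPM in 18 of 22 against 3 of 34 cells) and Mitf (2.44, 19 of 22 against 4 of 34). Runx1 had 0.68, with medians of 170 and 98.5 TPM, from reads that do not separate transgene from endogenous transcripts.

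**Figure D5:**
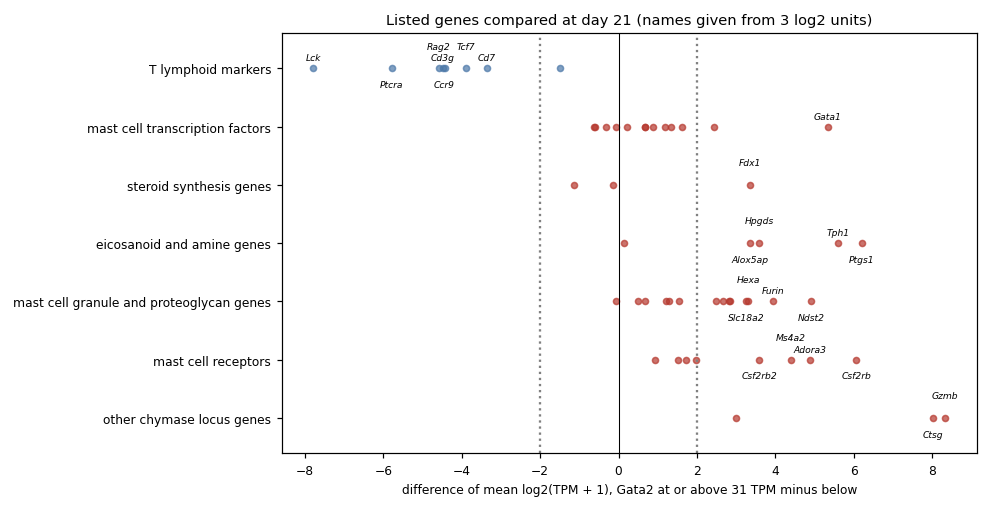
Difference of mean log2(TPM + 1), Gata2-high minus Gata2-low day-21 cells (horizontal axis), for the compared genes of 7 lists without the 9 members and Gata2, 1 point per gene, with dotted lines at 2 log2 units. In each of the 6 mast cell related lists at least 1 gene lies beyond 2, and 7 of 8 T lymphoid genes lie beyond -2.

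Markers of other cell types were read in the same cells. Of the 8 T lymphoid markers compared, 7 were at least 2 log2 units lower in Gata2-high cells, against 2.57% of genes, including Lck (-7.79), Ptcra (-5.79), Rag2 (-4.58) and Cd3g (-4.48). The summed TPM of the 12 listed T lymphoid markers ran from 0 to 2079 (median 45.9) in Gata2-high and from 416 to 5101 (median 1768) in Gata2-low cells. Il7r, whose product CD127 was part of the gate, was above 1 TPM in 8 of 22 Gata2-high and 33 of 34 Gata2-low cells. Of 11 basophil markers, 4 were compared and 3 were higher, against 4.15% of genes. They were the member Mcpt8, Il4 and Ms4a2, whereas Il3ra had 0.93. Il4 was above 1 TPM in 21 of 22 and 8 of 34 cells and Cd200r3 in 9 of 22 and 0 of 34. Itga2b was above 1 TPM in 1 of 22 and 2 of 34. Ccr3, Il6, Cebpa and Prss34 were listed at 0 in every day-21 cell. Summed eosinophil markers reached 62.7 TPM, megakaryocyte markers 34.9 TPM and erythroid markers 43.8 TPM, each with a median under 1 TPM in Gata2-high cells. Of the 4 neutrophil or monocyte markers compared, 2 were at least 2 log2 units higher, against 4.15% of genes. They were Ctsg and the Fc receptor gene Fcgr3 (4.05). The list summed to medians of 1830 TPM in Gata2-high and 53 TPM in Gata2-low cells. Mpo, Elane, S100a8, S100a9 and Lyz2 were listed at 0 in every day-21 cell. Of the 4 innate lymphoid markers compared, Gzmb and Id2 (2.73) were higher and Gzma (-5.32) lower, against 4.15% and 2.57% of genes. The part of other cell types in the members' levels was not tested. Of the 15 listed mast cell markers, 11 were compared and 10 were at least 2 log2 units higher in Gata2-high cells, against 4.15% of genes. Those 10 include members and Gata2, which set the groups. Because Tpsb2, Prss34 and Mrgprb2 were at 0 and Fcer1a was rare, the Gata2-high cells are named here by Gata2 and not as a mast cell or basophil type.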

How the data were processed

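Single-cell polyA RNA of 160 sorted mouse cells was analyzed. The authors amplified cDNA (Discover-sc WTA Kit V2), built TruePrep libraries and, per the submitters' processing notes, used bcl2fastq, HISAT2 2.1.0, SAMtools 0.1.19 and StringTie 1.3.4 with mm10. The deposited table holds TPM by the authors for 23420 genes, and 0 of its columns were left unused. Sums per cell ran from 988686 to 999108, so depth is unknown. Labels and methods name different sequencers.

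Values were analyzed as log2(TPM + 1), which understates changes of low genes. Detection was above 1 TPM. Comparisons between days used the 9674 genes detected in more than 30 of the 160 cells, and those by Gata2 the 9277 detected in more than 10 day-21 cells. A difference was counted from 2 log2 units. Cells are not replicates, so no test was run. Shares have exact Clopper-Pearson 95% intervals. Members, lists and the Gata2 threshold were chosen with earlier results of these data known. Named genes were the members, up to 4 genes per list with the largest difference by Gata2, defining genes listed at 0, the 3 genes most like each member and the sort genes. Srgn, Fcer1g, Il1rl1, Cma2, Runx1, Star, Fdxr, Alox5, Ltc4s, Ddc, Il4, Cd200r3, Ccr3, Il3ra, Itga2b, Il6, Cebpa, Cd7 and the individual cells were named after their values were seen. Promoters and positions came from RefSeq and GENCODE tables of GRCm38, the assembly of mm10. Python 3.11.15, numpy 2.4.6, pandas 2.3.3, scipy 1.17.1 and matplotlib 3.10.9 were used, and the ranking step was checked on simulated data. Alternatives were other thresholds, pseudocounts, scaling and cell filters.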

Additional observations from a re-analysis of the deposited data

How the results depend on the processing

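Counts that depend on detection moved with its threshold. The median over the 9 members of the share of day-21 cells above it was 83.9% at 1 TPM, 62.5% at 10 TPM and 39.3% at 100 TPM. Day-21 cells with 8 or 9 members above it were 31 at 1 TPM and 16 at 100 TPM, and those with all 3 protease types were 32 at 1 TPM, 21 at 10 TPM and 16 at 100 TPM. With Spearman's rho in place of Pearson's r, 16 of the 27 most alike genes remained. Of the 46 compared genes of the mast cell lists beyond the members, 22 were higher by 2 log2 units. At 1 log2 unit the count was 31 and at 3 it was 16. The median difference between day 17 and day 21, 4.92 log2 units, was 7.31 with a pseudocount of 0.1 and 2.95 with 10. The median difference by Gata2, 7.90, ran from 5.71 with a pseudocount of 10 to 8.98 with 0.1, and was 5.86 when divided at 1 TPM and 8.14 without cells 1 and 27, an alternative added after seeing the data. Of 125 recomputed values of single results, 105 were classed as the same, 20 as moved and 0 as reversed in sign. Shares and counts have no spread between cells, and some classed as the same still differed. Day-21 cells with 8 or 9 members, for example, were 22 at 10 TPM. Shares, counts and differences that start from 0 at day 17 cannot change sign, so the 0 reversed values say little. No paired analysis was possible because the labels give numbers to cells and not to replicates, and no test was run. Read depth, which TPM does not keep, limits what a value of 0 shows.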
